A study of Homo sapiens with 21 samples.

Results

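Interferon-stimulated genes are genes that a cell switches on after it senses virus or receives interferon. A set of 39 such genes was taken by symbol, matched through the Ensembl gene identifiers of the deposited tables. All 39 were found among 60617 genes, and 37 passed the low-count filter, all but MX2 and RSAD2. The samples were 7 lines of SUM149PT, a human inflammatory breast cancer cell line negative for the estrogen and progesterone receptors. They were the uncloned line (Parental) and 6 clones, E, EM1, EM2, EM3, M1 and M2, in a study of the intermediate state between epithelial (E) and mesenchymal (M) cells. Polyadenylated RNA was sequenced from 3 libraries of each line, 21 in all, and no line was treated with interferon or any other agent. Each clone name stands for 1 clone, so a difference between names is a difference between those clones. Whether a line's libraries are independent cultures is not stated, and the p-values cover only their spread, which may be technical. In such bulk samples fewer cells that express a gene and less of its RNA per cell cannot be told apart.

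As background, type I and type III interferons bind surface receptors whose kinases phosphorylate STAT2 and other factors. With IRF9, STAT2 works in a complex that binds the interferon-stimulated response element (ISRE) near the start of the genes it drives, and GAS is another element of interferon-driven genes. The products detect foreign RNA, block its translation, degrade it or stop virus from entering or leaving the cell. In tumor cells part of the program can be on without added interferon.

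RefSeq promoter windows (GRCh38.p14, 250 bases before to 50 after a start site) were matched by symbol for 31 of the 39 genes, 43 windows in all. The core of the ISRE was searched as GAAA, any 2 bases and GAAA, on both strands, overlapping matches included. It was present in 24 of 43 windows (55.8%) and 20 of 31 genes (64.5%), against 1255 of 35116 windows (3.57%) and 4.38% of 27305 genes in the whole table. GAS, searched as TTCNNNGAA, was present in 11 windows (25.6%) against 7.66% of all windows. These shares describe the set and carry no test. The 200 bases before the start site are shown for 6 genes whose levels differed between some clones and whose windows hold a core. OAS1, CMPK2, XAF1 and SAMD9L also differed between some clones, but their windows hold no core and they are not shown. Matches to the core, on either strand, are in capitals.
ISG15, chr1:1013297-1013496, plus strand: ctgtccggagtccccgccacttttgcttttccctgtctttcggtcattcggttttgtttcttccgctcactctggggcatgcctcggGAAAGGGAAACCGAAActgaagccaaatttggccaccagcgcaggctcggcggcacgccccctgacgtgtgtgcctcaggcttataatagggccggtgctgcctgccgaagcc
IFIT1, chr10:89392423-89392622, plus strand: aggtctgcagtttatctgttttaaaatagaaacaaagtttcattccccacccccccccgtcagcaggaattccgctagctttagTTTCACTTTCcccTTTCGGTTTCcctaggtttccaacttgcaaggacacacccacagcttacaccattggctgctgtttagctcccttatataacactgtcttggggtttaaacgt
IFI27, chr14:94110536-94110735, plus strand: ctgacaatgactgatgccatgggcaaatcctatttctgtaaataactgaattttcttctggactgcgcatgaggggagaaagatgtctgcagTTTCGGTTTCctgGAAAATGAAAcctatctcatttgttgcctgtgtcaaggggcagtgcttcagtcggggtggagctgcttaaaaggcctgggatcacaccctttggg
SAMD9, chr7:93117980-93118179, minus strand: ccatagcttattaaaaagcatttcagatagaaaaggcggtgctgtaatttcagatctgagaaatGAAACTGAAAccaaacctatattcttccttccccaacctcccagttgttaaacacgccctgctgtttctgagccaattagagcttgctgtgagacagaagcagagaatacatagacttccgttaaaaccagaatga
IFITM3, chr11:320861-321060, minus strand: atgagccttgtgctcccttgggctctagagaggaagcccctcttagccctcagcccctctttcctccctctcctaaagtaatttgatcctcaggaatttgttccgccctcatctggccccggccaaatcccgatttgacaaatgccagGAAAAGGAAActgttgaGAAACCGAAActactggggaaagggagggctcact
IFI44L, chr1:78620248-78620447, plus strand: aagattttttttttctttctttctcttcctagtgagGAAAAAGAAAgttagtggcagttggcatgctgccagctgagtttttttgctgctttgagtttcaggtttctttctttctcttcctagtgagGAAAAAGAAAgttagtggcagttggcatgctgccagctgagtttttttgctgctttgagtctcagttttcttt
In ISG15 the matches overlap and print as 1 run of capitals. The IFI44L stretch holds an exact repeat of 85 bases, whose copies start at -189 and -98, and each copy carries a core. PARP9, an ADP-ribosyltransferase, and DTX3L, its E3 ligase partner, share 1 core (chr3:122564332-122564341), shown in the 30 bases around the start of DTX3L because the levels of the pair are set side by side.
DTX3L, chr3:122564318-122564347, plus strand: acctccagggaagcGAAACTGAAActttgc
A match describes these letters only, and a window without one says nothing about binding.

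**Figure D1:**
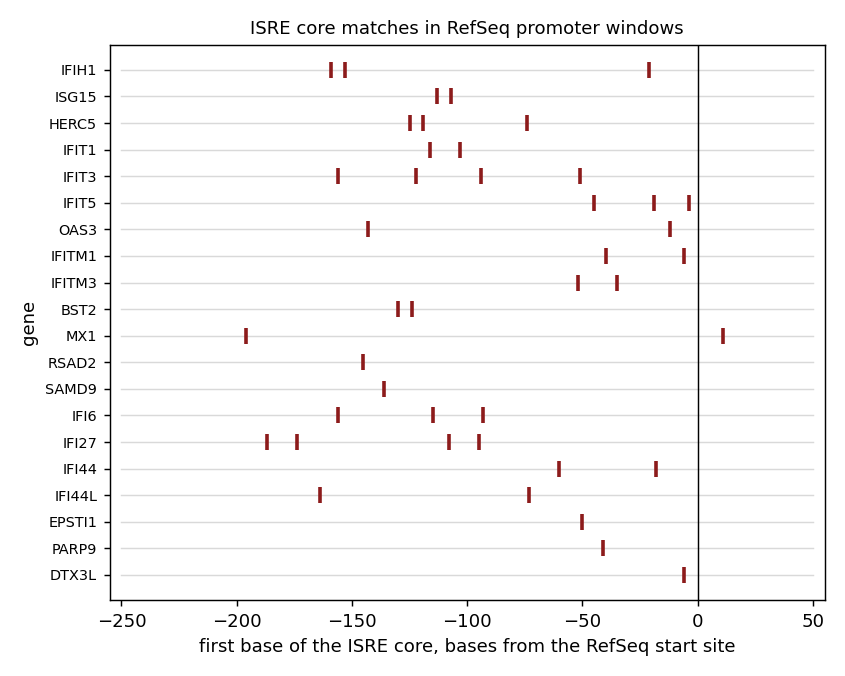
Position of each ISRE core match in the RefSeq promoter windows of the 20 genes that have one; the horizontal axis is the distance in bases from the start site to the first base of the match, the black line is the start site and grey lines span the window. All marks but 1 of MX1 lie before the start site, and IFI27 has 2 windows with marks drawn from each.

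E carried the highest mean level of these genes. Averaged over the 39, log2(TPM + 1) was 2.71, 2.85 and 2.84 in replicates 1, 2 and 3 of E, where TPM scales a gene's counts by its effective length and the library's total, and values of a line keep this order throughout. EM1 had 2.05, 2.00 and 2.09, EM2 1.82, 2.11 and 1.78 and EM3 2.27, 2.32 and 2.13. It was 2.78, 2.43 and 2.31 in M1, 2.44, 2.59 and 2.2 in M2 and 1.85, 2.06 and 2.24 in Parental. Every E library lay above every library of EM1, EM2, EM3, M2 and Parental, while M1 replicate 1 fell within the range of E. EM3 lay above EM1 and EM2, and Parental overlapped all 3 EM clones.

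**Figure D2:**
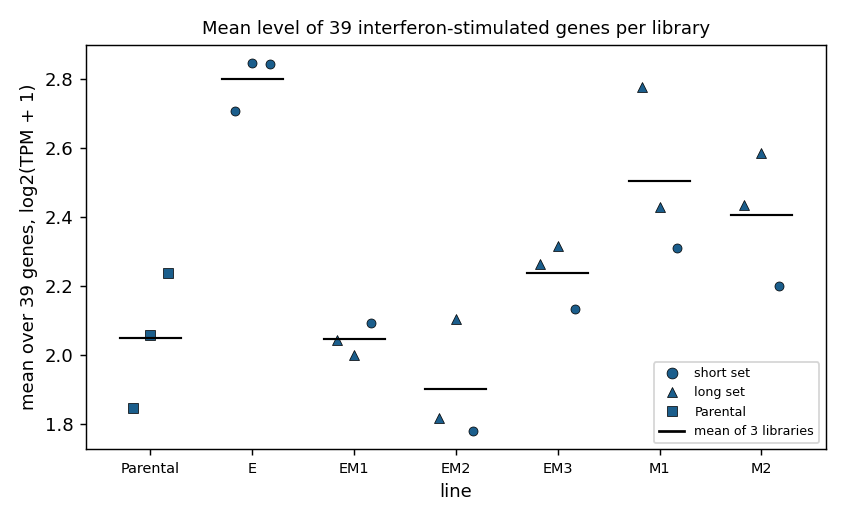
Mean log2(TPM + 1) over the 39 genes in each library (vertical axis) by line (horizontal axis), with bars at the means of 3 libraries and marker shapes for library sets by mean effective length. The E libraries sit between 2.71 and 2.85, and M1 replicate 1, at 2.78, is the library of another line in that range.

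The summed level followed another order, since 5 abundant genes, IFITM1, IFITM2, IFITM3, BST2 and IFI27, made 74.2 to 87.2% of it. The sum was 1050 ± 85.1 TPM in E (mean ± SD, n = 3 in each line) and 1080 ± 155 in M2, with overlapping libraries. It was 813 ± 79.1 in M1, 529 ± 34.988 in EM3, 473 ± 44.1 in EM2, 458 ± 58.7 in Parental and 412 ± 87.009 in EM1. Gene by gene, the highest line mean was in M2 for 15 of the 39, in E for 11, in M1 for 9, in EM3 for 3 and in EM2 for 1. The lowest was in EM2 for 14, in EM1 and Parental for 8 each, in M2 for 6, in EM3 for 2 and in M1 for 1. These tallies take line means alone, often with overlapping libraries, and include MX2 and RSAD2. They were not made over all genes, so they are not read as a trait of the set.

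**Figure D3:**
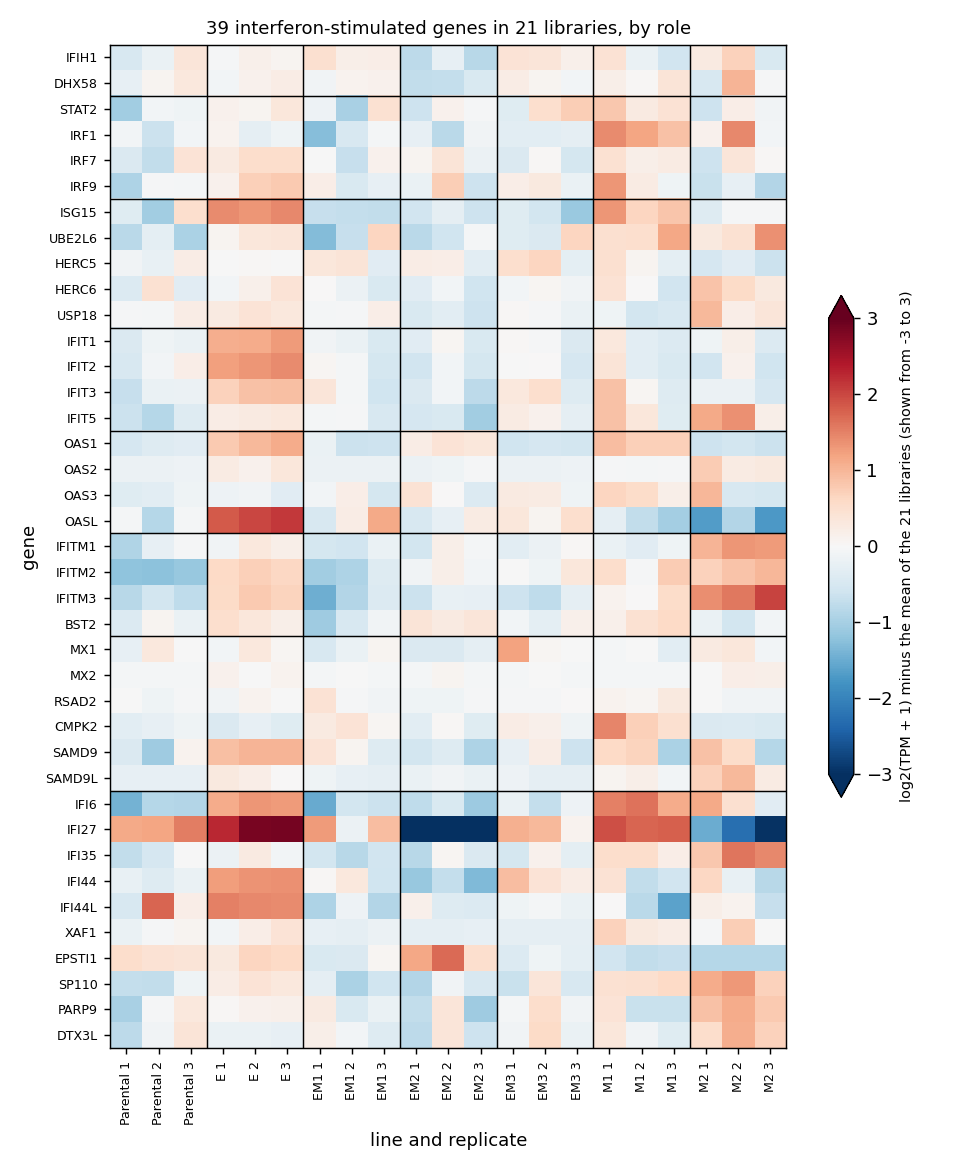
Level of the 39 genes (vertical axis, by role) in the 21 libraries (horizontal axis) as log2(TPM + 1) minus the gene's mean over all libraries, shown from -3 to 3. IFIT1 and IFIT2 stand highest in E, and IFITM3 stands highest in M2.

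The expected counts of a library summed to between 24602417 and 48149939. By mean effective length the clone libraries fell into a short set of 8 (the 3 E libraries with replicate 3 of EM1, EM2, EM3, M1 and M2, 1751 to 1806 bases) and a long set of 10 (1880 to 1983 bases), a split that the labels do not name. Parental lay at 1825 to 1881 bases. Replicate 3 was the lowest of its line in all 5 clones other than E for HERC5, HERC6, IFIT1, IFIT3, IFIT5, OAS3, CMPK2 and SAMD9, and the highest for UBE2L6. CDH1, an epithelial cadherin, was at most 0.12 TPM in M1 and M2 and at least 14.1 elsewhere, and of the hormone receptors PGR was at most 0.05 throughout. ESR1, the estrogen receptor, was 0.13, 0.11 and 0.1 TPM in E and 0.77, 2.1 and 2.26 in EM3, which had its highest mean, and was called higher than E in EM1 and EM3 (edgeR, BH-adjusted p = 0.000467 and 0.000627) and lower in M1 and M2 (edgeR, BH-adjusted p = 5.17e-05 and 7.33e-05). The sum of 11 blood, immune and endothelial markers was 12.7 to 16.5 TPM in E, most of it HBA1 and CD14, and 0.77 to 12.3 elsewhere. PTPRC and CD3E, which define immune cells, were at most 1.37 and 0.05 TPM. The part of these markers in the level of E was not tested.

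Each clone was compared with E, which asks how the genes differ between the epithelial clone and the others. These 5 comparisons, and that of E with Parental, share the E libraries and are not independent. Counts were tested with edgeR over 18632 genes, and a change counted as called where the BH-adjusted p fell under 0.05. Changes are log2 fold changes, clone minus E, ± the standard error of the fit. The short set was also tested with Parental alone, a choice made after seeing the data, in which each other clone has 1 library that is assumed to vary like the rest. That run holds fewer libraries, so a call that ended there need not mean that the difference was absent. Each call was tried again under up to 34 alternatives (other scalings, filters and tests, terms for library set or length, the short or long set, and each library left out), and a call ended where its adjusted p no longer fell under the threshold.

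In EM1, 24 of the 37 genes were lower than in E and 1, CMPK2, was higher (over all genes tested, 8.09% were lower and 9.84% higher). The median change was -1.44, against 0.04 over all genes. The lower genes included 4 of 4 IFIT genes, 4 of 4 membrane restriction genes and 3 of 4 OAS genes. Of the IFIT genes 2 were called without E replicate 2 or 3 or EM1 replicate 3, and of the membrane genes 2 without EM1 replicate 1 or 2 and in the short set with Parental. The count of lower genes was 15 without E replicate 3, 14 without EM1 replicate 1, 15 without EM1 replicate 2 and 14 in the short set with Parental.

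In EM2, 23 genes were lower and 0 higher (over all genes, 6.95% lower and 6.95% higher), with a median change of -1.48 against 0.01. At an unadjusted p under 0.05 edgeR had 2 higher, and DESeq2 and limma-voom each called 0 higher. Both sensors, 4 of 4 IFIT genes and 3 of 4 OAS genes were lower, and 0 of the 4 signalling factors. In EM3, 18 were lower and CMPK2 was higher (over all genes, 7.96% and 9.36%), with a median change of -1.11 against 0.03. CMPK2 was not called in EM3 in the short set with Parental.

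In M1, 14 were lower and CMPK2 was higher (over all genes, 18.1% each way, 36.2% in all), with a median change of -0.74 against 0.03. The number higher was 2 without M2 replicate 2, 2 with a term for library set and 3 with mean effective length as a covariate. M2 was mixed, with 15 lower and 3 higher, IFITM1, IFI35 and DTX3L (over all genes, 26.8% and 24.6%, 51.3% in all), and a median change of -0.39 against 0.01. The number higher in M2 was 5 without EM1 replicate 3, 5 without M1 replicate 3, 5 in the short set with Parental and 6 with a term for library set. The share of the 37 called lower was thus 64.9%, 62.2% and 48.6% in the EM clones, 37.8% in M1 and 40.5% in M2.

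Genes with and without an ISRE core in their windows were counted apart, with no test of the difference. Of 19 tested genes with a core, 13, 12 and 8 were lower in the 3 EM clones, by number, and 10 and 11 in M1 and M2, where 8.09, 6.95, 7.96, 18.1 and 26.8% of all genes were lower. Of 11 genes whose windows hold none, the counts were 6, 5, 4, 0 and 2. The genes called higher were 0, 0, 0, 0 and 2 of those with a core and 1, 0, 1, 1 and 1 of those without, against 9.84, 6.95, 9.36, 18.1 and 24.6% of all genes. CMPK2, higher in EM1, EM3 and M1, is among the genes whose windows hold none.

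With TPM tested in place of counts, which left 28 of the genes, 11, 11, 7, 5 and 10 were lower in EM1, EM2, EM3, M1 and M2 (limma on log2(TPM + 1)). The share of all genes called lower on this scale is not given, so these counts have no background beside them. This scale shrinks the changes of genes with low TPM, and its part in these numbers was not tested. That scale moved the median change of all genes by 0.222, 0.204, 0.287, 0.287 and 0.198. Over all genes the share of calls that were higher went from 54.9 to 74.2% in EM1, 50 to 71.3% in EM2, 54 to 80% in EM3, 50 to 67.7% in M1 and 47.8 to 59.5% in M2. No called change of the 37 genes took the opposite sign under any alternative run.

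**Figure D4:**
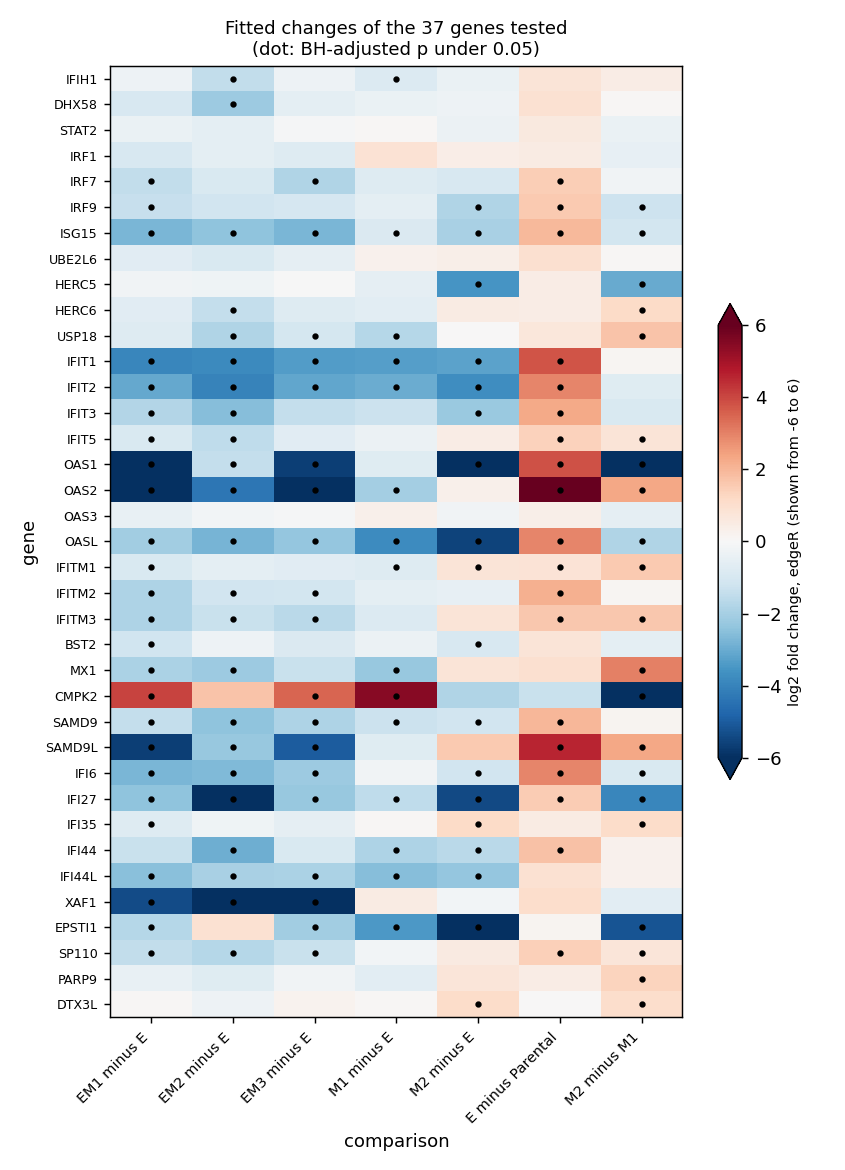
Fitted log2 fold change (colour, shown from -6 to 6) of the 37 tested genes (vertical axis) in 7 comparisons (horizontal axis), with a dot where the edgeR BH-adjusted p was under 0.05. IFIT1 and IFIT2 are blue in each clone against E and red in E minus Parental, and CMPK2 is red with a dot in EM1, EM3 and M1.

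The sensors were lower in EM2. IFIH1 (MDA5), which detects long double-stranded RNA, was 2.49, 2.96 and 2.79 TPM in E and 1.06, 2.01 and 0.99 in EM2, with no overlap (-1.48 ± 0.27; edgeR, BH-adjusted p = 0.00108). DHX58 (LGP2), a helicase that tunes IFIH1, was 1.88, 2.33 and 2.56 TPM in E and 0.82, 0.85 and 1.2 in EM2, also apart (-2.16 ± 0.40; edgeR, BH-adjusted p = 0.00129). Tested as log2(TPM + 1), both calls ended (limma, adjusted p = 0.131 and 0.0847). IFIH1 was also called lower in M1 (-0.84 ± 0.26; edgeR, BH-adjusted p = 0.0183), where TPM overlapped E at 3.76, 2.11 and 1.4. That call ended without E replicate 2 (0.0552), E replicate 3 (0.0578), M1 replicate 2 (0.0727) or M1 replicate 3 (0.0703), and in 7 of 33 alternatives in all.

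Of the signalling factors STAT2 and IRF1 were called in none of the 7 comparisons. IRF1, a transcription factor that interferon gamma also induces, had its highest mean in M1, at 21.6, 17.97 and 14.3 TPM against 7.99, 5.96 and 6.72 in E, and M2 replicate 2 reached 21.7. IRF9, the DNA-binding partner of STAT2, was 7.08, 11.1 and 11.6 TPM in E and 3.66, 5.16 and 3.01 in M2. All M2 libraries lay below E (-1.80 ± 0.43; edgeR, BH-adjusted p = 0.00204). EM1 was also lower (-1.38 ± 0.43; edgeR, BH-adjusted p = 0.0319), a call that ended in 7 of 33 alternatives, among them the runs without E replicate 2 or 3 or EM1 replicate 1 or 2.

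ISG15, a ubiquitin-like protein that is joined to other proteins, separated the lines. It was 19.8, 18.2 and 19.9 TPM in E and 18.2, 11.03 and 12.7 in M1. It was 3.79, 3.72 and 3.65 in EM1, 4.21, 5.45 and 4.04 in EM2, 5.01, 4.29 and 2.59 in EM3, 4.87, 6.58 and 6.52 in M2 and 5.01, 2.74 and 10.01 in Parental. E and M1 stood above all libraries of the other lines. The change in EM1, EM2, EM3 and M2 was -2.76 ± 0.34, -2.41 ± 0.33, -2.73 ± 0.34 and -1.96 ± 0.33 (edgeR, BH-adjusted p = 2.48e-05, 9.11e-05, 2.66e-05 and 7.29e-05). In M1 it was -0.87 ± 0.32 (edgeR, BH-adjusted p = 0.0403). That call ended without E replicate 1, 2 or 3 (0.0846, 0.0627 and 0.114), without M1 replicate 1, 2 or 3 (0.0534, 0.152 and 0.0692) and with a term for library set (0.0629), 12 of 33 alternatives in all.

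The enzymes around ISG15 had other patterns. UBE2L6, the E2 enzyme that carries ISG15, was called in none of the 7 comparisons and ranged from 8.70 to 60.4 TPM. HERC5, the ligase that attaches ISG15, was 0.13, 0.27 and 0.03 TPM in M2 against 0.59, 0.64 and 0.6 in E (-3.55 ± 0.57; edgeR, BH-adjusted p = 4.18e-05), and was not called in the other clones. USP18, the protease that removes ISG15, was 1.79, 2.08 and 1.91 TPM in E, 0.71, 0.86 and 0.52 in EM2 and 1.12, 0.59 and 0.67 in M1. Both clones lay below E (-1.80 ± 0.30 and -1.72 ± 0.30; edgeR, BH-adjusted p = 0.000459 and 0.000182). EM3 was also lower (-1.07 ± 0.29; edgeR, BH-adjusted p = 0.0159), a call that ended in 7 of 33 alternatives, among them the runs without E replicate 2 or 3 or EM3 replicate 2. HERC5 and USP18, like IFIT1, IFIT2, IFITM1, IFITM2, IFI6, IFI44L, PARP9 and DTX3L, were picked for description after their values were seen.

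IFIT proteins bind foreign RNA and block its translation. IFIT1 was 2.05, 2.1 and 2.46 TPM in E and at most 0.77 in the other 18 libraries, and IFIT2 was 2.88, 3.11 and 3.38 in E and at most 1.17 elsewhere. No other library reached E for either gene. The change of IFIT2 was -3.09 ± 0.80, -4.01 ± 0.84, -3.13 ± 0.80, -2.98 ± 0.80 and -3.70 ± 0.83 in EM1, EM2, EM3, M1 and M2 (edgeR, BH-adjusted p = 0.0125, 0.00344, 0.0111, 0.00685 and 0.00114). IFIT3 was 2.51, 2.96 and 3.07 TPM in E, 0.61, 1.05 and 0.25 in EM2 and 0.93, 0.92 and 0.52 in M2, with both clones below E (-2.56 ± 0.54 and -2.22 ± 0.54; edgeR, BH-adjusted p = 0.0037 and 0.00202). M1 replicate 1 held 2.99 TPM of IFIT3, inside the range of E, and M1 was not called (edgeR, BH-adjusted p = 0.0574). EM1 was lower than E for IFIT3 and IFIT5 and EM2 for IFIT5 (edgeR, BH-adjusted p = 0.026, 0.0272 and 0.000963). IFIT5 was highest in M2, at 10.7, 12.6 and 4.94 TPM against 5.15, 5.35 and 5.53 in E, with overlap and no call (edgeR, BH-adjusted p = 0.189). The 4 genes lie together on chromosome 10 (chr10:89283694-89421001, GENCODE 29, GRCh38).

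OAS enzymes make the RNA messenger that activates RNase L, and OAS1, OAS3 and OAS2 lie side by side (chr12:112906777-113011723). OAS1 was 1.7, 2.08 and 2.41 TPM in E, 1.99, 1.55 and 1.56 in M1 and 0.83, 1.07 and 0.98 in EM2. Its expected counts were 139, 183 and 191 in E, 2, 0 and 1 in EM1, 2, 4 and 3 in EM3, 1, 2 and 0 in M2 and 6, 9 and 8 in Parental. OAS1 was thus near zero in EM1, EM3 and M2 (edgeR, BH-adjusted p = 9.68e-07, 1.83e-06 and 3.83e-08 against E), EM2 was lower (-1.44 ± 0.42; edgeR, BH-adjusted p = 0.0288), and M1 was not called (-0.74 ± 0.41; edgeR, BH-adjusted p = 0.175). The EM2 call ended in 7 of 31 alternatives, among them the runs without E replicate 1, 2 or 3 or EM2 replicate 1 or 2. OAS2 had 0 counts in all 3 EM1 libraries, so E was at least 31.3-fold higher with EM1 set at 3 counts over the group. Its counts were 34, 47 and 45 in E, 0, 3 and 2 in EM2, 0, 0 and 1 in EM3 and 7, 11 and 9 in M1. Parental held 0, 0 and 1. EM2, EM3 and M1 were also lower than E (edgeR, BH-adjusted p = 0.000639, 0.000106 and 0.0125), as was Parental (edgeR, BH-adjusted p = 0.000537). The M1 call ended in 3 of 30 alternatives. In M2, where OAS1 was near zero, OAS2 was 0.9, 0.34 and 0.37 TPM beside 0.34, 0.23 and 0.42 in E (0.29 ± 0.55; edgeR, BH-adjusted p = 0.684).

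OAS3, between them on the chromosome, was called in none of the 7 comparisons and lay between 2.4 and 8.86 TPM. OASL, a relative without synthetase activity, was 13.1, 14.8 and 16.1 TPM in E, above all other libraries. It was 1.84, 3.62 and 7.64 in EM1, 2.26, 1.36 and 0.94 in M1 and 0.24, 1.14 and 0.2 in M2, and EM1 replicate 3 was the highest outside E. The change was -3.77 ± 0.62 in M1 and -5.56 ± 0.69 in M2 (edgeR, BH-adjusted p = 0.000117 and 2.28e-06). The call in EM1 (-2.09 ± 0.58; edgeR, BH-adjusted p = 0.0175) ended without E replicate 3 (0.0556), EM1 replicate 1 (0.0853) or EM1 replicate 2 (0.0803), and in the short set with Parental, where the change was -1.21 (0.154). EM2 and EM3 were lower too (-2.78 ± 0.59 and -2.32 ± 0.58; edgeR, BH-adjusted p = 0.0038 and 0.00969). The EM2 call ended in the short set with Parental, and the EM3 call without EM3 replicate 2 and with mean effective length as a covariate.

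**Figure D5:**
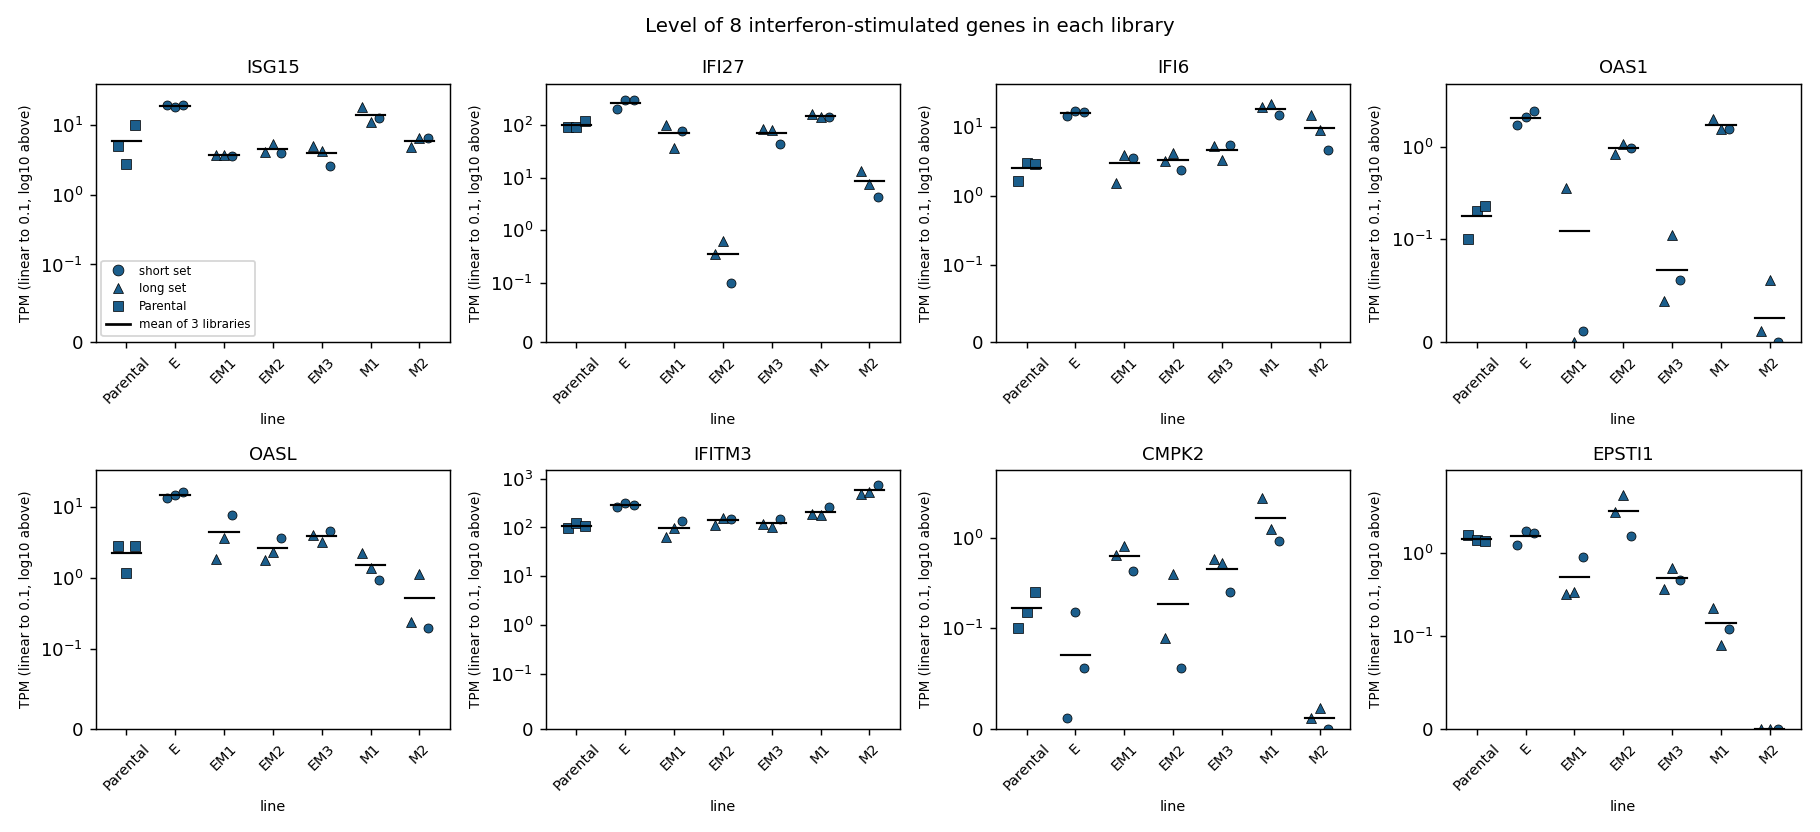
TPM (vertical axis, linear from 0 to 0.1 and log10 above) of 8 genes in each library by line (horizontal axis), with bars at the means of 3 libraries and marker shapes for library sets. OAS1 is low in EM1, EM3 and M2, IFI27 is lowest in EM2, and EPSTI1 is at 0 in all 3 M2 libraries.

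The membrane restriction genes were the abundant ones. IFITM3, which blocks viral entry, was 268, 311 and 283 TPM in E and 473, 537 and 736 in M2. It was 63.7, 96.2 and 134 in EM1, 115, 153 and 150 in EM2, 117, 105 and 148 in EM3, 191, 181 and 261 in M1 and 99.4, 122 and 106 in Parental. M2 stood above every other library, yet its difference from E was not called (0.77 ± 0.33; edgeR, BH-adjusted p = 0.0595). EM1, EM2 and EM3 were lower than E (-1.86 ± 0.34, -1.34 ± 0.33 and -1.62 ± 0.34; edgeR, BH-adjusted p = 0.00104, 0.0111 and 0.00276), and the EM2 call ended without EM2 replicate 1 or 2. IFITM1, IFITM2 and IFITM3 are close copies (chr11:307631-327537), reads could be split between them in the counting, and each value is uncertain for that reason.

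IFITM1 was 70.2, 87.7 and 85.2 TPM in M2 against 32.0, 42.9 and 39.2 in E, with no overlap (0.77 ± 0.26; edgeR, BH-adjusted p = 0.0169). That call ended without E replicate 1 (0.0747) or M2 replicate 3 (0.0844). IFITM1 was lower in EM1 and M1 (-0.92 ± 0.26 and -0.78 ± 0.26; edgeR, BH-adjusted p = 0.0184 and 0.0233), calls that ended in 7 of 33 and 9 of 33 alternatives. BST2 (tetherin), which holds budding virus at the surface, was 146, 130 and 117 TPM in E and 48.6, 73.2 and 94.9 in EM1 (-1.19 ± 0.30; edgeR, BH-adjusted p = 0.0114), a call that ended without EM1 replicate 1 (0.0768) or 2 (0.0537) and in the short set with Parental, where the change was -0.72 (0.126). M2 was also lower (-0.95 ± 0.30; edgeR, BH-adjusted p = 0.0134), a call that ended in 4 of 33 alternatives, among them the runs without E replicate 1 or M2 replicate 2.

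Among antiviral effectors CMPK2, a mitochondrial nucleotide kinase, went the other way. It was 0.01, 0.15 and 0.06 TPM in E, 0.65, 0.82 and 0.43 in EM1, 0.59, 0.52 and 0.25 in EM3, 2.79, 1.25 and 0.92 in M1 and 0.01, 0.02 and 0 in M2. All 9 libraries of EM1, EM3 and M1 lay above all 3 of E. EM2, at 0.09, 0.4 and 0.06 TPM, overlapped E and was not called. The change was 4.07 ± 0.73 in EM1, 3.51 ± 0.72 in EM3 and 5.47 ± 0.75 in M1 (edgeR, BH-adjusted p = 0.000819, 0.00242 and 1.66e-05). The EM3 call ended in the short set with Parental (0.0558). RSAD2 (viperin), its neighbour (chr2:6840570-6898239), had at most 19 counts in any library.

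SAMD9, which restricts poxviruses, was 7.65, 8.32 and 8.27 TPM in E, above all other libraries, and 2.11, 2.49 and 1.41 in EM2 (-2.42 ± 0.49; edgeR, BH-adjusted p = 0.00259). It was also lower in EM1, EM3, M1 and M2 (edgeR, BH-adjusted p = 0.0423, 0.0122, 0.0369 and 0.0494), calls that ended in 10 of 33, 3 of 33, 7 of 33 and 18 of 33 alternatives, the EM1, M1 and M2 calls also without any 1 E library. SAMD9L, next to it (chr7:93099513-93148369), had expected counts of 35, 53 and 66 in E, 1, 1 and 0 in EM1, 4, 0 and 0 in EM3 and 184, 108 and 44 in M2. It was lower than E in EM1 and EM3 (edgeR, BH-adjusted p = 0.000771 and 0.000961) and not called in M2 (1.56 ± 0.67; edgeR, BH-adjusted p = 0.0598). The call of SAMD9L in EM2 (edgeR, BH-adjusted p = 0.0428) ended in 10 of 30 alternatives, also without any 1 library of E or EM2. MX1, a GTPase that traps viral particles, was lower than E in EM1, EM2 and M1 (edgeR, BH-adjusted p = 0.0263, 0.0147 and 0.00466). These calls ended in 7 of 30, 4 of 30 and 1 of 30 alternatives. MX1 was higher in M2 than in M1 (edgeR, BH-adjusted p = 0.000354). Its TPM reached 2.25 in EM3 replicate 1, on 12 counts, while EM3 replicate 2 held 0.47 TPM on 11 counts. TPM of so few counts turns on the effective length estimated in each library.

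IFI27, a mitochondrial protein strongly induced by type I interferon, was most abundant in E. It was 197, 294 and 302 TPM in E and 157, 138 and 141 in M1. It was 99.2, 35.6 and 77.6 in EM1, 84.7, 79.1 and 43.03 in EM3, 13.6, 7.62 and 4.3 in M2 and 90.01, 91.8 and 118 in Parental. EM2 held 0.36, 0.63 and 0.1 TPM, on 1, 2 and 3 counts. E lay above all other libraries, and EM2 lay below all others with M2 next. The change was -9.32 ± 0.41 in EM2, -5.42 ± 0.32 in M2, -2.43 ± 0.27 in EM1 and -2.27 ± 0.27 in EM3 (edgeR, BH-adjusted p = 1.23e-10, 1.11e-10, 9.25e-06 and 1.5e-05). M1 was lower as well (-1.52 ± 0.26; edgeR, BH-adjusted p = 0.00018). The M1 call ended on log2(TPM + 1) and log2(TPM + 0.1) (changes -0.83 and -0.84; limma, adjusted p = 0.0865 and 0.166). The effective length of IFI27 ran from 39.2 bases in M2 replicate 1 to 548 in EM2 replicate 3, and its TPM turns on that estimate. In M2 the expected counts were 21, 25 and 40, in the opposite order to the TPM.

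IFI6, an inhibitor of cell death, was 14.5, 16.9 and 16.5 TPM in E, 19.4, 21.01 and 14.6 in M1 and at most 5.41 in EM1, EM2 and EM3. M1 was not called (-0.23 ± 0.35; edgeR, BH-adjusted p = 0.637), and EM1, EM2, EM3 and M2 were lower (edgeR, BH-adjusted p = 7.89e-05, 0.000124, 0.000537 and 0.0119), and the M2 call ended without M2 replicate 3. IFI44L was 19.7, 18.5 and 18.3 TPM in E and 4.18, 23.03 and 7.32 in Parental, where replicate 2 lay above E. All 5 other clones were lower than E (edgeR, BH-adjusted p = 0.00277, 0.0146, 0.0148, 0.000815 and 0.001). The calls in EM1, EM2 and EM3 ended in the short set with Parental, where the changes were -2.85, -2.11 and -1.84. That in EM2 also ended without EM2 replicate 2 and that in EM3 without EM3 replicate 1 or 2. XAF1, which antagonises the apoptosis inhibitor XIAP, had 0 counts in all 3 EM3 libraries, so E was at least 35.8-fold higher with EM3 set at 3 counts over the group. EM1 and EM2 were also lower for XAF1 (edgeR, BH-adjusted p = 0.00134 and 0.000754). Both calls ended in the short set with Parental, where the changes were still -5.10 and -5.04. XAF1 was 0.93, 0.46 and 0.4 TPM in M1 and 0.17, 1 and 0.19 in M2, beside 0.13, 0.38 and 0.59 in E, and neither was called (edgeR, BH-adjusted p = 0.609 and 0.859).

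EPSTI1, first described in breast epithelium, was 1.23, 1.84 and 1.73 TPM in E, 3.06, 4.9 and 1.58 in EM2, 0.22, 0.09 and 0.12 in M1 and 0 in every M2 library. E was at least 45.7-fold higher than M2, set at 3 counts over the group, and the change in M1 was -3.44 ± 0.49 (edgeR, BH-adjusted p = 4.67e-05). EM1 and EM3 were also lower (-1.70 ± 0.44 and -2.09 ± 0.45; edgeR, BH-adjusted p = 0.0143 and 0.00407), and both calls ended in the short set with Parental, that in EM1 also without EM1 replicate 1. IFI35 was 13.3, 23.6 and 20.95 TPM in M2, above every E library at 6.15, 8.74 and 6.61 (1.16 ± 0.26; edgeR, BH-adjusted p = 0.001). DTX3L was 10.7, 16.2 and 12.1 TPM in M2 against 6.03, 6.1 and 5.86 in E (1.12 ± 0.34; edgeR, BH-adjusted p = 0.0111), a call that ended without M2 replicate 2 (0.0513) and with mean effective length as a covariate (0.105). PARP9, which shares its core, was 7.75, 9.18 and 7.09 TPM in M2 and 3.81, 4.13 and 4.21 in E and was not called (0.71 ± 0.41; edgeR, BH-adjusted p = 0.158).

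E was also compared with the uncloned line. There 19 of the 37 genes were higher in E and 0 lower (over all genes, 5.02% higher and 5.93% lower), with a median change of 1.06 against -0.01. At an unadjusted p under 0.05 edgeR had 0 lower, as had DESeq2 and limma-voom after adjustment. The higher genes included 4 of 4 IFIT genes, 3 of 4 OAS genes and 3 of 4 membrane restriction genes. Of the IFIT genes 2 were called without E replicate 2 or 3 or Parental replicate 1 or 3, since the IFIT1 and IFIT2 calls ended there. The IFIT2 call ended without any 1 of the 6 libraries of the lines compared, and the IFITM1 call (0.82 ± 0.26; edgeR, BH-adjusted p = 0.0475) ended in 17 of 31 alternatives. OAS1 was 0.1, 0.2 and 0.23 TPM in Parental (3.84 ± 0.49; edgeR, BH-adjusted p = 9.11e-05) and OASL 2.79, 1.18 and 2.81 (2.94 ± 0.60; edgeR, BH-adjusted p = 0.00471), each below every E library. IFITM2 was 35.3, 34.8 and 36.98 TPM in Parental against 124, 135 and 127 in E (2.14 ± 0.30; edgeR, BH-adjusted p = 0.000244). E lies in the short set and Parental does not, so line and set cannot be told apart here.

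M2 and M1 were compared directly, with 12 genes higher in M2 and 9 lower (over all genes, 19% and 22.2%, 41.2% in all) and a median change of 0.09 against -0.02. USP18 was 3.61, 1.69 and 2.02 TPM in M2 against 1.12, 0.59 and 0.67 in M1 (1.73 ± 0.30; edgeR, BH-adjusted p = 0.000123). IFITM3 and IFITM1 were also higher in M2 (1.60 ± 0.34 and 1.56 ± 0.26; edgeR, BH-adjusted p = 0.000856 and 9.41e-05). IFI27 and HERC5 were lower in M2 (-3.90 ± 0.30 and -3.03 ± 0.56; edgeR, BH-adjusted p = 6.44e-09 and 0.000253), as was CMPK2, with 1, 1 and 0 counts against 220, 121 and 64 (edgeR, BH-adjusted p = 2.92e-06). The count of higher genes was 7 without M1 replicate 3 and that of lower genes 5 without M1 replicate 1. Within the long set alone, 8 were higher and 6 lower.

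The ligands of the pathway were near zero. The 10 interferon genes examined (IFNA1, IFNA2, IFNB1, IFNE, IFNK, IFNW1, IFNL1, IFNL2, IFNL3 and IFNG) were at most 0.16 TPM in any library and none passed the low-count filter. Of 59 other genes of the pathway, 47 were tested. In EM1, EM2, EM3, M1 and M2 the test called 2, 2, 0, 11 and 17 of them higher and 6, 8, 9, 6 and 11 lower than E. Over all genes the shares were 9.84, 6.95, 9.36, 18.1 and 24.6% higher and 8.09, 6.95, 7.96, 18.1 and 26.8% lower, against 4.26, 4.26, 0, 23.4 and 36.2% and 12.8, 17, 19.1, 12.8 and 23.4% of the 47.

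Of the 9 receptors and kinases, 1, 1, 0, 4 and 4 were higher in EM1, EM2, EM3, M1 and M2 and 0, 1, 1, 1 and 3 lower, beside 17.9, 13.9, 17.3, 36.2 and 51.3% of all genes called in either direction. JAK1, a kinase of both receptor types, was 11.2, 12.3 and 13.02 TPM in E, 37.3, 42.8 and 29.6 in M1 and 30.01, 33.4 and 38.1 in M2, both above E (edgeR, BH-adjusted p = 8.15e-06 and 3.05e-06). JAK2 was 0.42, 0.39 and 0.46 TPM in E and was higher in EM1, EM2, M1 and M2 (1.31 ± 0.44, 1.33 ± 0.44, 2.53 ± 0.45 and 1.28 ± 0.44; edgeR, BH-adjusted p = 0.0447, 0.0498, 0.000252 and 0.0199). The JAK2 calls in EM1, EM2 and M2 ended in 17 of 33, 22 of 33 and 8 of 33 alternatives, in each case also without E replicate 2 or 3, and that in M1 in 0 of 33 alternatives. TYK2 and IFNAR2 were called in no comparison. IFNAR1, a chain of the type I receptor, was higher in M1 and M2 (edgeR, BH-adjusted p = 0.0296 and 0.0498), with replicate 3 of each at 16.6 and 17.7 TPM against 15.4, 13.6 and 13.4 in E. These calls ended in 8 of 33 and 14 of 33 alternatives, also without E replicate 1, 2 or 3, and in M1 1 other alternative had the opposite sign. IFNLR1, a chain of the type III receptor, was lower in EM3, M1 and M2 (-1.20 ± 0.31, -2.07 ± 0.32 and -1.80 ± 0.32; edgeR, BH-adjusted p = 0.0118, 6.12e-05 and 0.000116), and the EM3 call ended without EM3 replicate 1. IL10RB, its partner, was lower in EM2 and M2 (-0.57 ± 0.18 and -2.02 ± 0.19; edgeR, BH-adjusted p = 0.0398 and 4.99e-08), and the EM2 call ended in 20 of 33 alternatives, also without E replicate 1, 2 or 3. For the interferon gamma receptor, IFNGR1 was higher in M1 and M2 (1.24 ± 0.32 and 1.40 ± 0.32; edgeR, BH-adjusted p = 0.00586 and 0.00149) and IFNGR2 lower in M2 (-0.87 ± 0.31; edgeR, BH-adjusted p = 0.0238). The IFNGR2 call ended in 8 of 33 alternatives, also without E replicate 2 or 3 or M2 replicate 1 or 3, and the IFNGR1 calls in 2 of 33 and 1 of 33 alternatives, both in the short set with Parental.

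STING1, the adaptor for DNA sensing, was 9.37, 11.3 and 9.29 TPM in E and 2.61, 1.17 and 1.54 in M2 (-3.09 ± 0.24; edgeR, BH-adjusted p = 5.2e-09). It was lower in EM1, EM2, EM3 and M1 as well (-1.41 ± 0.22, -1.02 ± 0.22, -1.52 ± 0.22 and -0.66 ± 0.22; edgeR, BH-adjusted p = 0.000287, 0.00425, 0.000142 and 0.0241), and the M1 call ended in 9 of 33 alternatives, also without E replicate 2 or 3 or M1 replicate 1 or 2. STAT3 was lower in EM1, EM2, EM3 and M1 and not in M2 (edgeR, BH-adjusted p = 0.00155, 0.00237, 0.0119, 0.00516 and 0.98). GBP1, an interferon-induced GTPase, was 14.3, 12.7 and 14.03 TPM in E and at most 4.64 in EM1, EM2 and EM3, each lower (edgeR, BH-adjusted p = 0.00384, 0.00145 and 0.0116), while M1 and M2 were not called. In EM3 the call of STAT3 ended without EM3 replicate 2 and that of GBP1 without EM3 replicate 1 or 2. The STAT3 calls in EM1, EM2, EM3 and M1 all ended in the short set with Parental. So did the STING1 calls in EM1, EM2 and M1 and the GBP1 calls in EM1 and EM3. Tested as log2(TPM + 1), the STAT3 calls in EM2, EM3 and M1 and the STING1 calls in EM1, EM2 and M1 ended. LGALS3BP, a secreted glycoprotein, was 1.81, 2.49 and 3.92 TPM in EM1, 29.7, 31.7 and 28.3 in E and 99.1, 134 and 154 in M1, lower and higher than E (-3.89 ± 0.36 and 1.76 ± 0.33; edgeR, BH-adjusted p = 1.39e-06 and 0.000359). It was also lower in EM2 and EM3 and higher in M2 (-1.01 ± 0.32, -3.80 ± 0.36 and 1.62 ± 0.32; edgeR, BH-adjusted p = 0.0422, 1.29e-06 and 0.000421), and the EM2 call ended in 15 of 33 alternatives, also without E replicate 1, 2 or 3. APOL1, a lipid-binding defence protein, was 9.19, 5.9 and 7.82 TPM in M2 against 0.12, 0.1 and 0.16 in E (5.54 ± 0.48; edgeR, BH-adjusted p = 2.35e-08), and was lower in EM1 and EM3 (edgeR, BH-adjusted p = 0.000398 and 0.000481). LAMP3 was higher in M1 and lower in EM2 and EM3 (2.60 ± 0.59, -2.50 ± 0.62 and -2.70 ± 0.62; edgeR, BH-adjusted p = 0.00221, 0.0101 and 0.00555). ISG20, an RNA exonuclease, and HELZ2, a helicase, were lower in M2 (-3.39 ± 0.72 and -2.24 ± 0.36; edgeR, BH-adjusted p = 0.000691 and 4.87e-05). ISG20 was also lower in EM3 and M1 (edgeR, BH-adjusted p = 0.0211 and 0.0245) and HELZ2 in EM1, EM3 and M1 (edgeR, BH-adjusted p = 0.0333, 0.0386 and 0.00323), and of these 5 calls all but that of HELZ2 in M1 ended without E replicate 2 or 3. That of HELZ2 in M1 ended in the short set with Parental, as did those of HELZ2 in EM1 and EM3.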

How the data were processed

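RNA of 21 libraries (7 SUM149PT lines, 3 libraries each) was measured by polyA RNA-seq. The submitters' processing notes name bcl2fastq 2.20.0.422, cutadapt 2.4, STAR 2.7.2b, RSEM 1.3.2 and hg38, and the annotation release and strand setting are not given in the sources used here. The authors deposited, per the file headers, RSEM expected counts, TPM and an effective length for each gene and library. Without a known strand setting, reads of overlapping or antisense genes cannot be told apart. In a library, 7.44 to 8.61% of all genes, those without a count included, had an expected count that was not a whole number.

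Expected counts were rounded and tested with edgeR 4.0.16 in R 4.3.3 (TMM scaling, filterByExpr by line, robust quasi-likelihood F-test, 1 mean per line over all 21 libraries, 14 residual degrees of freedom, common biological coefficient of variation 0.34). P-values were adjusted by Benjamini-Hochberg over 18632 genes within each of 7 comparisons, and the threshold was 0.05. The method was tested on data simulated from the E and EM2 libraries alone, with a common spread for all genes and no library sets. That test does not cover the split into sets, and its result is not reported here. TPM was used for levels and, with limma 3.58.1, as an alternative with pseudocounts of 1 and 0.1 where the mean TPM reached 1. Other alternatives were a log2 fold minimum of 1, no low-count filter, a mean CPM of at least 1, DESeq2 1.42.0, limma-voom, only the libraries of the lines compared, a replicate block, the library set as a term, effective length as a covariate, and each library left out. Clone libraries were split into sets at a mean effective length of 1843 bases. Parental was placed in neither set, and the term for library set counted it with the short set.

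Genes were described by rule: per role group the 2 of highest mean TPM, per comparison the 3 called genes with the largest absolute change, other pathway genes called in at least 3 comparisons with E, and receptors and kinases with a mean TPM of at least 1. Some genes that the rule or the marker list names are not reported here. The genes and lists were chosen with earlier results of these data known. Promoter windows came from RefSeq GRCh38.p14 and gene positions from GENCODE 29.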

Additional observations from a re-analysis of the deposited data

Results flagged for a closer look

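IFITM1 was lower than E in all libraries of EM1 and higher in all of M2, and the log2 fold changes of the 2 clones differed by 1.7, a difference that was not tested. IFITM1 was likewise lower than E in M1 and higher in M2, and here the fold changes differed by 1.56. M2 minus M1 tests that difference directly (1.56 ± 0.26; edgeR, BH-adjusted p = 9.41e-05), with M2 higher in 3 of 3 libraries. The IFITM1 call in M1 (edgeR, BH-adjusted p = 0.0233) ended in 9 of 33 alternatives, among them a term for library set (0.064), effective length as a covariate (change -0.35, 0.24), the short set with Parental (0.209) and the runs without E replicate 2 or 3 (0.084 and 0.0665) or M1 replicate 1 or 2 (0.0968 and 0.0994). The IFITM1 call in EM1 (edgeR, BH-adjusted p = 0.0184) ended in 7 of 33, among them the short set (0.248) and the runs without E replicate 2 or 3 (0.0762 and 0.0625) or EM1 replicate 1 or 2 (0.0971 and 0.0881). That in M2 ended without E replicate 1 (0.0747) or M2 replicate 3 (0.0844). IFI35 was lower than E in EM1 and higher in M2 and the fold changes differed by 1.92, which was not tested. The IFI35 call in EM1 (edgeR, BH-adjusted p = 0.0486) ended in 19 of 33 alternatives, among them those without E replicate 1, 2 or 3 (0.0991, 0.114 and 0.132) and without EM1 replicate 1 or 2 (0.145 and 0.172).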

How the results depend on the processing

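Counts of the 37 genes called by edgeR kept within 1.5 times their value in 147 of 180 alternatives other than left-out libraries and in 286 of 294 with 1 library left out. With limma on log2(TPM + 1), the number lower was 11, 11, 7 and 5 in EM1, EM2, EM3 and M1, and the number higher was 0, 0 and 5 in EM1, EM3 and M2. In E minus Parental 9 were higher, and in M2 minus M1 5 were higher and 5 lower. With log2(TPM + 0.1), the number lower was 11, 13, 7, 5 and 9 in EM1, EM2, EM3, M1 and M2, and the number higher was 0 in EM1 and EM3, 7 in E minus Parental and 5 in M2 minus M1. These tests hold 28 genes, and the share of all genes called in them is not given. With a mean CPM of at least 1, which holds 31, the number higher was 0 in EM1, EM3 and M1. CMPK2, the 1 gene higher in those comparisons, is not among the genes that the TPM and CPM filters hold, so those tests say nothing of its call. With no low-count filter 5 were higher in M2. In M1 the number higher was 2 with limma-voom, 2 with the 2 lines alone, 2 with a term for library set and 3 with effective length as a covariate. In M2 it was 6 with a term for library set and 5 with effective length. In the short set with Parental, chosen after seeing the data, 14 were lower in EM1, 0 higher in EM3 and 5 higher in M2. With the 2 lines alone, 4 were lower in M2 minus M1. Apart from the absence of CMPK2, the cause of these differences was not tested. The TPM and CPM filters also hold fewer genes, and the part of this was not tested either.

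With single libraries left out, the number higher and lower ranged over 1 to 1 and 14 to 26 in EM1, 0 to 0 and 17 to 23 in EM2, 1 to 1 and 13 to 21 in EM3, 1 to 2 and 10 to 16 in M1, and 2 to 5 and 13 to 16 in M2. It ranged over 13 to 20 and 0 to 0 in E minus Parental and 7 to 12 and 5 to 12 in M2 minus M1. No comparison had every same-numbered pair of libraries correlated above 0.1, so the numbers were not taken to pair them. With the replicate block the counts higher and lower were 1 and 27 in EM1, 0 and 26 in EM2, 1 and 23 in EM3, 1 and 18 in M1, 4 and 17 in M2, 21 and 0 in E minus Parental and 12 and 8 in M2 minus M1. Of alternatives to changes that were not called, 134 of 3847 had the opposite sign. E minus Parental has no value within a library set, because Parental was kept out of both sets by its label. Its mean effective lengths, 1825 to 1881 bases, lie on both sides of the split at 1843.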

Other observations

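Of 23 tested interferon-induced genes outside the set, 10 were higher and 5 lower in M2 than in E, against 24.6% and 26.8% of all genes. TRIM22, SP100 and PARP14 are among these. IFI16 is counted instead with the nucleic acid sensing genes, of which 3 of 8 tested were higher and 2 lower (37.5% and 25%). These 4 genes, all higher, were picked after their values were seen. TRIM22, an antiviral ubiquitin ligase, was 3.36, 5.94 and 1.59 TPM in M2 against 0.03, 0.07 and 0.25 in E (6.11 ± 0.82; edgeR, BH-adjusted p = 6.16e-06). IFI16, a DNA sensor, was 62.1, 144 and 58.6 TPM in M2 and 57.0, 18.2 and 19.1 in M1, against 5.2, 5.4 and 6.26 in E (3.94 ± 0.61 and 2.22 ± 0.57; edgeR, BH-adjusted p = 3.25e-05 and 0.00517). SP100, a nuclear body protein, and PARP14 were also higher in M2 (1.89 ± 0.20 and 1.91 ± 0.27; edgeR, BH-adjusted p = 4.06e-07 and 1.3e-05). All M2 libraries lay above all E libraries for these 4 genes.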
